A study of Mus musculus with 24 samples.

Results

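Expression of 54 genes for ephrins, Eph receptors, class 3 semaphorins, plexins, neuropilins, Slits, Robos, netrins and netrin receptors was followed through mouse optic vesicle (OV) organoid culture. The members were taken by gene symbol from the 49705 gene entries of the deposited table. They comprised 5 ephrin-A and 3 ephrin-B ligands, 9 EphA and 5 EphB receptors, 7 class 3 semaphorins, 9 plexins, 2 neuropilins, 3 Slits, 4 Robos, 2 netrins and 5 netrin receptors. RNA-seq had been performed in triplicate for 8 groups (24 libraries), all of live single cells taken by FACS. Days 0, 1, 2 and 3 gave 1 group each, while days 4 and 5 were each split by GFP fluorescence. All groups derived from Rax-GFP mouse embryonic stem cells (mESCs), in which a GFP cassette sits in the Rax locus, so the gates separate cells by activity of this eye-field gene. Every sample pooled 24 organoids, each started from 4500 mESCs on day 0, and cultures kept past that day received 2% Matrigel on day 1, after collection of the day 0 samples. For the medium, the labels name GMEM with 1.5% knockout serum replacement, whereas the paper names a chemically defined one for the initial organoids. Day 3 samples were not split by GFP, and the GFP-negative gate also took some cells with low GFP.

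Guidance molecules steer cells and growing axons by attraction or repulsion. Ephrins are membrane-bound ligands of the Eph receptor tyrosine kinases, and their contact-dependent signalling keeps neighbouring cell populations apart, with ephrin-A ligands anchored by a lipid and ephrin-B ligands by a transmembrane segment. Secreted class 3 semaphorins signal through plexins, for the most part with neuropilins as the ligand-binding partner. Slits repel cells that carry Robo receptors, and netrins attract through Dcc or repel through Unc5 receptors. In the vertebrate visual system, ephrin and Eph gradients order the map of retinal axons, and Eph signalling takes part in the separation of the eye field from neighbouring forebrain.

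Values are DESeq2-normalized counts, which the authors computed from kallisto estimates, and summed to between 39849111 and 51587535 per library. The worth of 1 read was 0.78 to 1.38 normalized counts, so a value near 10 rests on about as many reads and carries a large counting error. Rank correlations between replicates lay between 0.979 and 0.993, apart from the pairs with day 0 replicate 1, which reached 0.953 and 0.954. In that library 33 of the 54 members lay below both other day 0 libraries, against 6 and 14 members for replicates 2 and 3, and 12 lay below 50% of the lower of them. Calls between day 0 and day 3 are therefore also given without it. Rax, the gated gene, had a mean of 115 ± 35.6 on day 3, 975 ± 38.4 and 9559 ± 436 in day 4 GFP-negative and GFP-positive cells, and 447 ± 60.6 and 8608 ± 463 in those of day 5 (SD, n = 3 each). In bulk samples such as these, fewer cells of a type and less RNA per cell cannot be told apart.

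Of the 54 members, 53 reached 10 normalized counts in at least 3 libraries and entered the test. Epha6 did not, with values from 0 to 8.67. Epha3 and Plxnb3 reached 10 in only 11 libraries, Sema3g in 16 and Sema3d in 19, so a pass of these members depended on the groups in which they are high. Differences are on the log2(normalized count + 1) scale, from limma fitted to all 24 libraries with Benjamini-Hochberg adjustment over 21005 genes. The words rose, fell, higher and lower below mark a call, set where the adjusted p was below 0.001 and the log2 difference exceeded 1.5 in size. At least 1 comparison gave a call for 36 of the 53 members tested, beside 21.2% of all genes.

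Most calls were rises between day 0 and day 4. From day 0 to day 3, 14 members rose and 3 fell, or 26.4% and 5.66% of those tested, beside 5.91% and 6.12% of all genes. From day 3 to day 4 GFP-positive cells 13 rose and 6 fell (24.5% and 11.3%, beside 3.33% and 7.36% of all genes). From day 3 to day 4 GFP-negative cells 15 rose and 0 fell (28.3% and 0%, beside 2.00% and 0.871%), while 37 members (of 53, beside 29.7% of all genes) had an unadjusted p under 0.05 in either direction. Both day 4 comparisons share the day 3 libraries. Without day 0 replicate 1 the count from day 0 to day 3 was 13 and 4, and 14 of the 17 members called with all libraries were called again. Their rises were then 5.61 for Ephb1, 4.04 for Efna5, 3.72 for Unc5a, 3.35 for Slit3 and 2.95 for Epha1 on the log2 scale. Ephb6, Robo3, Sema3a, Robo1, Epha8, Sema3f and Epha7 followed at 2.29 to 1.69, and Epha2 and Robo4 were at -3.30 and -2.89. The lost calls were those of Unc5b (1.10), Ephb2 (1.45) and Dcc (-1.81). Without day 0 replicate 2 the count of rises and falls was 17 and 1, and without day 0 replicate 3 it was 16 and 2. Without day 3 replicate 3 it was 14 and 1, so the number of falls depended on single libraries. Fits of the compared groups alone, with fewer libraries, called 6 of the 17 (Efna5, Epha1, Epha2, Ephb1, Slit3 and Unc5a) and 8 of the 15 into GFP-negative cells, where Dcc, Plxna4, Plxnc1, Robo3, Sema3d, Slit1 and Unc5c were lost. Median log2 differences of the tested members were 0.78, 0.72 and 0.62, and those of all genes -0.04, -0.01 and -0.02.

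Markers of cell types moved over the same days. The 6 pluripotency markers summed to 136072 to 180107 normalized counts on day 0 and 36002 to 47085 on day 3, with 5 of 6 lower. From day 3 to day 4, 6 of 6 were lower in GFP-positive cells and 1, Pou5f1, in GFP-negative cells. Of 6 mesendoderm markers 4 were higher on day 3 than on day 0 (sums of 3158 to 3376 against 692 to 1281), after which 5 were lower in GFP-positive and 1 was higher in GFP-negative cells. The 5 eye-field markers summed to 297 to 495 on day 0 and 1095 to 1656 on day 3, with 2 of 5 higher, and 5 and 4 were higher in the GFP-positive and GFP-negative gates of day 4 than on day 3. The endothelial markers Cdh5 and Pecam1 were lower on day 3 than on day 0, and of 5 surface ectoderm markers tested 1 was higher and 2 lower. Into day 4 GFP-negative cells, 3 of 5 neural crest markers were higher and 1 lower, and endothelial Kdr was higher. Into GFP-positive cells, 1 neural crest marker was higher and 2 lower, and 2 endothelial and 2 surface ectoderm markers were lower. The part of these cell types in the rises and falls of the members was not tested.

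Between gates the calls were mostly lower in GFP-positive cells. On day 4, 1 member was higher and 7 were lower in the GFP-positive gate (1.89% and 13.2%, beside 0.328% and 3.63% of all genes). On day 5 the numbers were 1 and 6 (1.89% and 11.3%, beside 0.400% and 4.61%). Efnb2 was the higher member on both days, and Epha1, Epha2, Sema3e, Slit1 and Unc5c were lower on both. The day 4 comparison called 5 members without GFP-negative replicate 2 or GFP-positive replicate 1, and 5 in a fit of these groups alone, where Nrp1, Slit1 and Unc5c were lost. With quantile normalization Slit1 was lost on day 4, and Efna1 and Efnb2 on day 5, which left 0 higher members there. From day 4 to day 5, 2 members rose and 1 fell in GFP-positive cells (3.77% and 1.89%, beside 0.595% and 0.890%), and 2 rose and 2 fell in GFP-negative cells (3.77% each, beside 0.762% and 0.509%). Leaving out single libraries moved these totals to between 0 and 3 and between 1 and 5, and a fit of the compared groups alone lost Robo2, Robo3 and Unc5b in the former and Epha3 and Robo3 in the latter.

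With wider thresholds, an adjusted p under 0.05 and a log2 difference above 1 in size, the counts were larger for the members and for all genes. From day 0 to day 3, 27 of 53 members passed, beside 24.9% of all genes, and from day 3 to day 4 GFP-positive cells 31, beside 22.0%. Between the day 5 gates 18 passed, beside 10.6% of all genes. From day 4 to day 5 the GFP-positive gate had 13 and the GFP-negative gate 10, beside 5.47% and 4.96%.

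**Figure D1:**
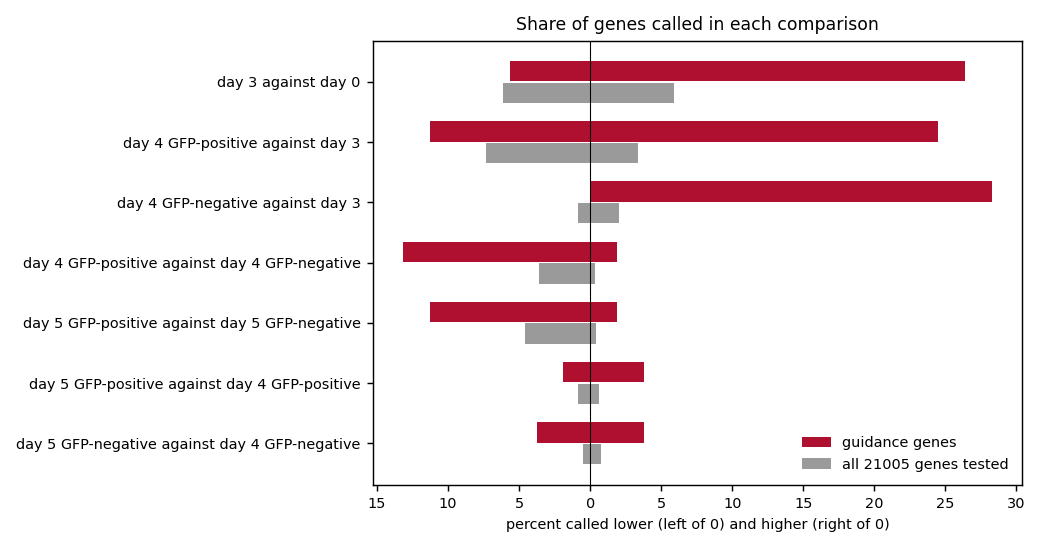
Percent of the 53 tested guidance genes (red) and of all 21005 genes tested (grey) called higher (right of 0) or lower (left of 0) in the first-named group of each comparison. The largest red bars are the rises of 26.4%, 24.5% and 28.3% up to day 4, and both gate comparisons reach farther to the left, with 13.2% and 11.3%.

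**Figure D2:**
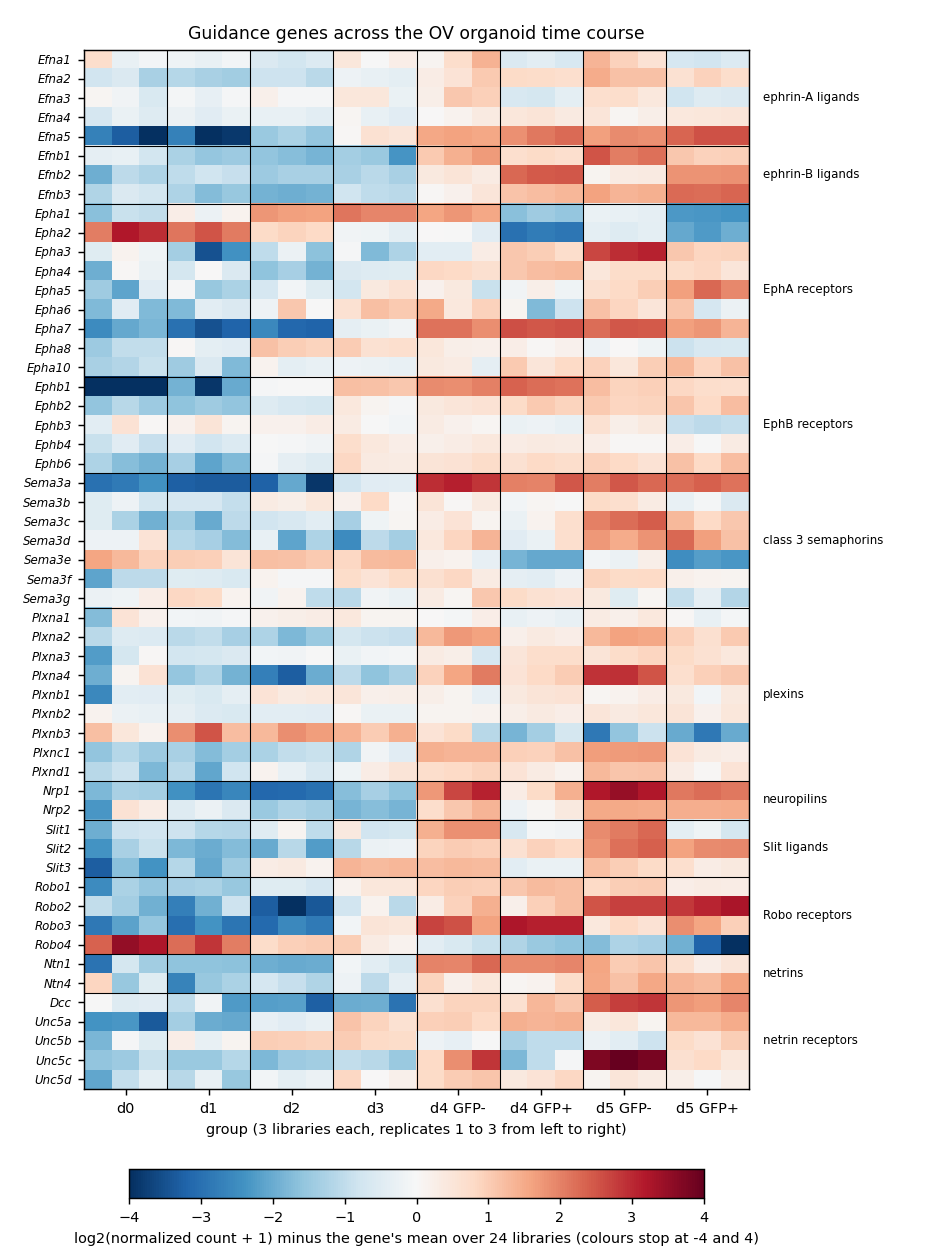
Log2(normalized count + 1) of the 54 members in each of 24 libraries, minus the mean of each gene, with genes in rows by family and libraries in columns by group. Blue is below and red above the mean of the gene, and most rows turn from blue to red at day 3 or day 4, whereas Epha2 and Robo4 run from red to blue.

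The highest group mean fell on a day 5 group for 21 members in GFP-negative and 9 in GFP-positive cells, and on a day 4 group for 6 in GFP-negative and 9 in GFP-positive cells. Days 0, 1, 2 and 3 held the maximum of 3, 1, 2 and 3 members. These maxima were not tested, and some were near ties. Plxnb2, for example, had means of 8381 and 8202 in GFP-negative and GFP-positive cells of day 5. The same count was not made over all genes, so it does not set the members apart.

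The regions upstream of 4 of the 6 members that differed between gates on both days are shown because these genes were called in both gate comparisons, Efnb2 in the opposite direction to the others. RefSeq windows of GRCm38.p6 were at hand for 45 members (51 windows), and the 250 bases before the start are printed 5′ to 3′ on the strand of the gene for Efnb2 (chr8:8661243-8661492, minus strand), Epha1 (chr6:42373269-42373518, minus strand), Epha2 (chr4:141300971-141301220, plus strand) and Sema3e (chr5:14025026-14025275, plus strand). The Epha2 window ends short of the start of the gene in GENCODE M21 (141301240), and the other 3 adjoin theirs. Slit1 and Unc5c, also lower on both days, are not shown. Capitals mark each GC box GGGCGG, the core of the site bound by Sp1-type factors, on either strand.
Efnb2: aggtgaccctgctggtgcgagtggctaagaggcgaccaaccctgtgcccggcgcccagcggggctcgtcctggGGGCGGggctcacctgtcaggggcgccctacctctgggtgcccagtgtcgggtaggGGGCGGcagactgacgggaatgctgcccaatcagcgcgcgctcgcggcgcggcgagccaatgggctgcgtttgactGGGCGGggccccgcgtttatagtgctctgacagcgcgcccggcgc
Epha1: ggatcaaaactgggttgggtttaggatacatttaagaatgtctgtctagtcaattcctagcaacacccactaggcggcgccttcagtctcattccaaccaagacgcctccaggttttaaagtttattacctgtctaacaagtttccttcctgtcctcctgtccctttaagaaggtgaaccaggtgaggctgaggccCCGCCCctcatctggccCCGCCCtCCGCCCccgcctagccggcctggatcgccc
Epha2: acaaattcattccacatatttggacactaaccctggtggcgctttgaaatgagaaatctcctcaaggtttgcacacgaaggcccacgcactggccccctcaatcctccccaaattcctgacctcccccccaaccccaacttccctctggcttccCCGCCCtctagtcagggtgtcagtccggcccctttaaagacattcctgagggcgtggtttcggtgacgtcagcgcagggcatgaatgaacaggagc
Sema3e: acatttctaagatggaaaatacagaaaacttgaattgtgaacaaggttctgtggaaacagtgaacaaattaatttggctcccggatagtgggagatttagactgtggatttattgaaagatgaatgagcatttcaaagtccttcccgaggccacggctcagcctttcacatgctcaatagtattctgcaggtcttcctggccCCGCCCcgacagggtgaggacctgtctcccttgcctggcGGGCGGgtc

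The 4 windows differed in base composition, with 72% G and C for Efnb2, 54.4% for Epha1, 55.6% for Epha2 and 48% for Sema3e, and held 3, 3, 1 and 2 GC boxes. A GC box was found in 37 of the 51 member windows (72.5%) and in 32.7% of all 32851 windows of the same length, whose median G and C content was 52.4%, beside 64.8% for the members. The homeodomain core TAATTA was in 5.88% of the member windows, those of Efna1, Epha5 and Robo3, and in 4.84% of all windows. The octamer ATGCAAAT was in 0 of 51 member windows and in 1.6% of all. All motifs were searched on both strands, none of them overlaps another in its letters, and a match is a description of the letters only.

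Among the ephrins, the ligands that activate Eph receptors on touching cells, all 3 ephrin-B genes rose into day 4 GFP-positive cells. Efnb2 was read at 1598, 1887 and 1600 normalized counts on day 3 and at 19609, 21712 and 22065 in day 4 GFP-positive cells, against 5246, 5669 and 5008 in GFP-negative cells. Every GFP-positive library lay above every GFP-negative one, and both gates lay above day 3. The rise from day 3 was log2 3.64 ± 0.15 (± is the standard error for all log2 differences, adjusted p = 1.84e-13, limma), a ratio of means of 12.4, and that in GFP-negative cells 1.65 ± 0.15 (adjusted p = 1.66e-07, limma).

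Efnb2 was 3.97 times higher in the GFP-positive gate on day 4 (log2 1.99 ± 0.15, adjusted p = 7.86e-09, limma). On day 5 the libraries were at 13692, 13911 and 14039 in GFP-positive and 4300, 4980 and 5081 in GFP-negative cells. They again did not overlap, with a log2 difference of 1.54 ± 0.15 (adjusted p = 2.14e-07, limma), just above the threshold of 1.5. Without day 5 GFP-negative replicate 1 it was 1.46 and with quantile normalization 1.50, neither of them past the fold threshold (adjusted p = 4.31e-06 and 1.4e-07, limma).

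Efnb1 and Efnb3 rose as well, with other patterns between gates. Efnb1 was at 236, 216 and 118 on day 3 and reached 1249, 1607 and 1972 in day 4 GFP-negative and 970, 1029 and 957 in GFP-positive cells. It rose in both gates, by 3.11 ± 0.21 and 2.43 ± 0.21 on the log2 scale (adjusted p = 1.19e-09 and 6.14e-09, limma), and its GFP-negative libraries were the upper ones. On day 5 Efnb1 was at 3429, 2508 and 2793 in GFP-negative and 1276, 1136 and 1165 in GFP-positive cells, a log2 difference of -1.28 ± 0.21 that did not pass the fold threshold. Efnb3 went from 650, 553 and 532 on day 3 to 2468, 2627 and 2805 in day 4 GFP-positive cells, a rise of 2.19 ± 0.15 (adjusted p = 1.68e-10, limma). Its GFP-negative libraries, at 1170, 1274 and 1554, lay below these, but the difference between gates of 0.99 ± 0.15 was under the fold threshold.

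Compared per kb of exon, Efnb2 was the highest ephrin-B gene in 7 of 8 groups, with 3082 mean normalized counts per kb in day 4 GFP-positive cells against 827 for Efnb3. In day 5 GFP-negative cells Efnb3 came ahead of Efnb1, with 976 and 843 per kb. On day 0 Efnb2 led Efnb3 in only 2 of 3 libraries, with 225 and 199 per kb, so their order there was not separated.

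Among the ephrin-A genes only Efna5 was called in the time course. It had 94.7, 61.3 and 37.8 normalized counts on day 0, 644, 949 and 865 on day 3, and 2194, 2649 and 3000 in day 4 GFP-positive cells. The 3 groups did not overlap, with rises of 3.72 ± 0.28 and 1.68 ± 0.28 (adjusted p = 1.11e-09 and 6.15e-05, limma). Day 4 GFP-negative libraries were at 1802, 1887 and 1797, and the difference between gates of 0.50 ± 0.28 was not called.

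Efna1 was lower in GFP-positive cells on day 5, with 87.6, 81.8 and 95.4 against 357, 263 and 206 in GFP-negative cells. The groups did not overlap and differed by -1.60 ± 0.27 on the log2 scale (adjusted p = 0.000164, limma). The call was lost without day 5 GFP-negative replicate 1 (-1.39, adjusted p = 0.00217, limma) and without GFP-positive replicate 1 or 2 (adjusted p = 0.00103 and 0.00128, limma), and also with quantile normalization (-1.20, adjusted p = 0.00483, limma) and in a fit of the day 5 groups alone (adjusted p = 0.00298, limma). Efna3 had like differences, -1.32 ± 0.22 on day 4 and -1.24 ± 0.22 on day 5, which stayed under the fold threshold. Per kb, Efna4 led the ephrin-A genes in 7 of 8 groups, from 485 on day 0 to 929 in day 5 GFP-positive cells, and Efna2 led in day 5 GFP-negative cells with 921. Efna3 and Efna4 share 14.1% and 10.5% of their exon bases with antisense genes, and without stated strandedness their reads cannot be told apart.

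**Figure D3:**
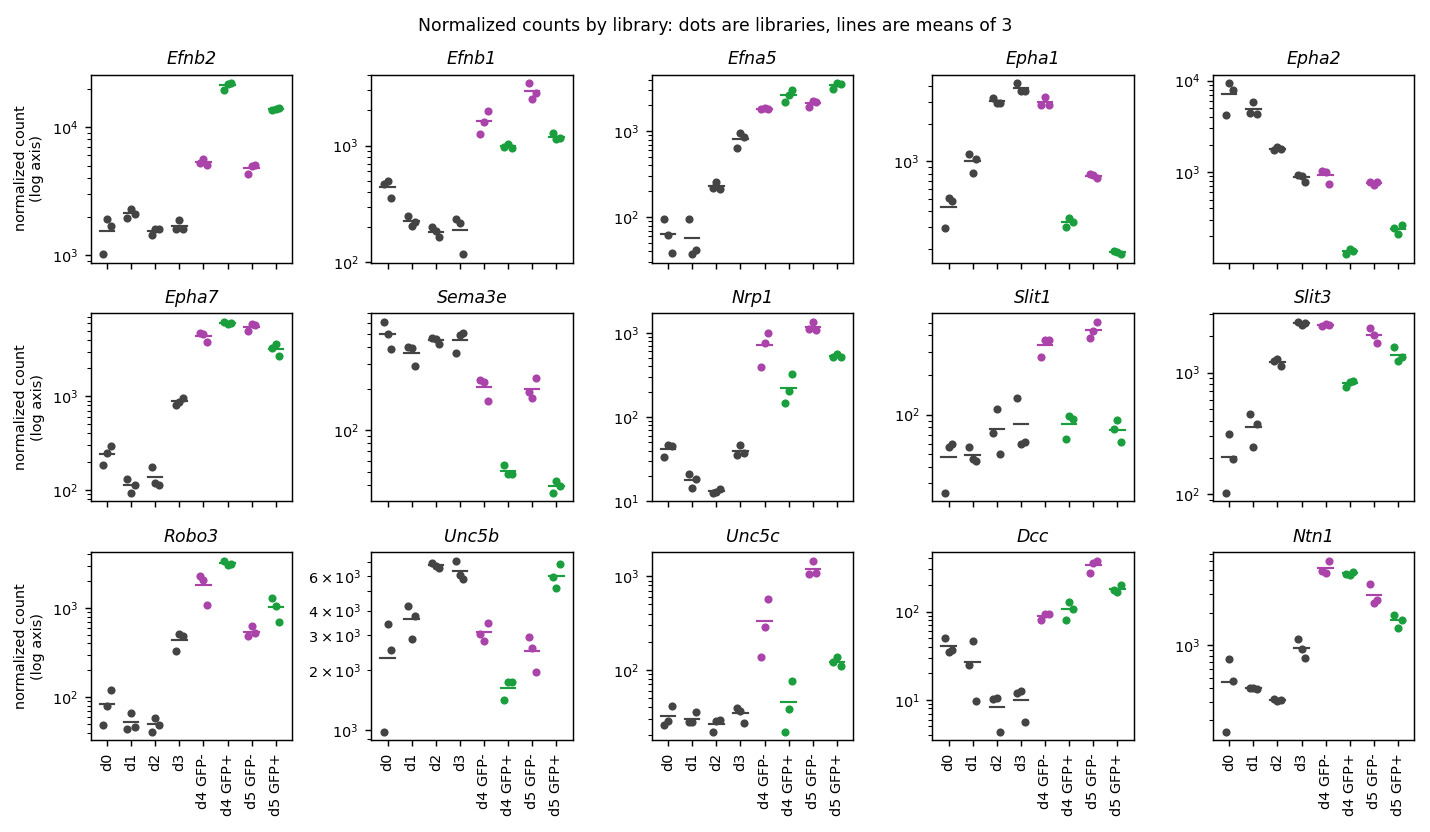
Normalized counts (log axis) of 15 members in each library, by group, with dots for libraries and lines for the mean of 3, grey for cells not split by GFP, green for GFP-positive and purple for GFP-negative cells. Efnb2 is the member with the green dots above the purple ones and a call on both days. Epha1, Epha2, Sema3e, Slit1 and Unc5c have the purple dots on top and a call on both days. Efnb1, Nrp1 and Slit3 also have the purple dots on top on both days, without a call on both.

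The EphA receptors, which bind ephrin-A ligands for the most part, were led by different members over the time course. Epha2, a receptor known from pluripotent and epithelial cells, was at 4191, 9415 and 7864 on day 0, at 930, 911 and 781 on day 3 and at 127, 145 and 137 in day 4 GFP-positive cells. The groups did not overlap, and the falls were log2 2.96 and 2.67 (SE 0.20 each, adjusted p = 2.53e-10 and 1.07e-09, limma). Day 4 GFP-negative libraries stayed at 1034, 1009 and 750 and overlapped day 3.

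Epha2 was 6.85 times lower in the GFP-positive gate on day 4 (log2 -2.75 ± 0.20, adjusted p = 4.55e-09, limma). On day 5 GFP-positive libraries were at 245, 209 and 262 and GFP-negative libraries at 774, 719 and 770. The gates did not overlap, at a log2 difference of -1.66 ± 0.20 (adjusted p = 3.14e-06, limma).

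Epha1 rose before it fell. It was at 296, 513 and 485 on day 0, at 3226, 2953 and 2924 on day 2 and at 4233, 3679 and 3684 on day 3, a rise from day 0 of 3.20 ± 0.16 (adjusted p = 2.01e-12, limma). In day 4 GFP-positive cells it was at 300, 356 and 329, back in the range of day 0, and in GFP-negative cells at 2852, 3248 and 2805. The GFP-positive value was 11.8 times below day 3 (log2 -3.55 ± 0.16, adjusted p = 4.14e-13, limma) and 9.05 times below GFP-negative cells (log2 -3.17 ± 0.16, adjusted p = 1.73e-11, limma).

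On day 5 Epha1 was at 193, 189 and 182 in GFP-positive and 789, 781 and 744 in GFP-negative cells, again with no overlap (log2 -2.03 ± 0.16, adjusted p = 6.56e-09, limma). GFP-negative cells had themselves fallen since day 4, by log2 1.94 (SE 0.16, adjusted p = 1.03e-07, limma). Epha1 shares 6.01% of its exon bases with Zyx on the opposite strand.

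Epha7 and Epha4 went the other way. Epha7, with a known part in retinal and forebrain patterning, was at 183, 250 and 294 on day 0 and at 809, 878 and 959 on day 3, and on day 4 reached 6217, 5861 and 6109 in GFP-positive and 4700, 4674 and 3818 in GFP-negative cells. It rose by 1.88 ± 0.18 up to day 3, and from there by 2.78 ± 0.18 and 2.31 ± 0.18 in the gates (adjusted p = 2.65e-08, 6.72e-11 and 9.52e-09, limma). On day 5 the order of the gates was turned, with 3243, 3584 and 2708 in GFP-positive and 4980, 5851 and 5742 in GFP-negative cells. Neither gate difference was called, 0.47 ± 0.18 on day 4 and -0.80 ± 0.18 on day 5.

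Epha4 was at 1353, 1417 and 1456 on day 3 and at 4348, 4761 and 4992 in day 4 GFP-positive cells, a rise of 1.74 ± 0.32 (adjusted p = 0.00015, limma). The call was lost without day 4 GFP-positive replicate 3 (1.69, adjusted p = 0.00109, limma). Epha8 went from 97.8, 138 and 137 on day 0 to 545, 417 and 433 on day 3 (1.90 ± 0.16, adjusted p = 7.17e-09, limma) and was not called between any later groups.

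Epha3 was near the limit of detection until day 4, with 7.33, 7.34 and 12.9 in GFP-negative and 22.7, 21.1 and 17.2 in GFP-positive cells. On day 5 it was at 71, 85.4 and 93.2 in GFP-negative and 22.7, 19.5 and 19.9 in GFP-positive cells. The rise in GFP-negative cells was 3.08 ± 0.48 (adjusted p = 0.000189, limma). It was lost without replicate 1 or 2 of day 4 or replicate 2 or 3 of day 5 (2.96 to 3.06, adjusted p = 0.0015 to 0.0019, limma).

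Per kb of exon, Epha2 was the highest EphA gene on day 0, with 1531 mean normalized counts per kb, and on day 1, with 1041. Epha1 was the highest on days 2 and 3 (772 and 984) and in day 4 GFP-negative cells (756). In day 4 GFP-positive cells Epha7 and Epha4 were at 613 and 584 per kb, and Epha7 led in only 2 of 3 libraries, so these neighbours were not separated. Epha7 led in day 5 GFP-negative cells with 559 per kb, ahead of Epha4 with 396, and Epha4 led in GFP-positive cells with 408, ahead of Epha7 with 322. In every group but day 4 GFP-positive, all 3 libraries had the same leader.

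**Figure D4:**
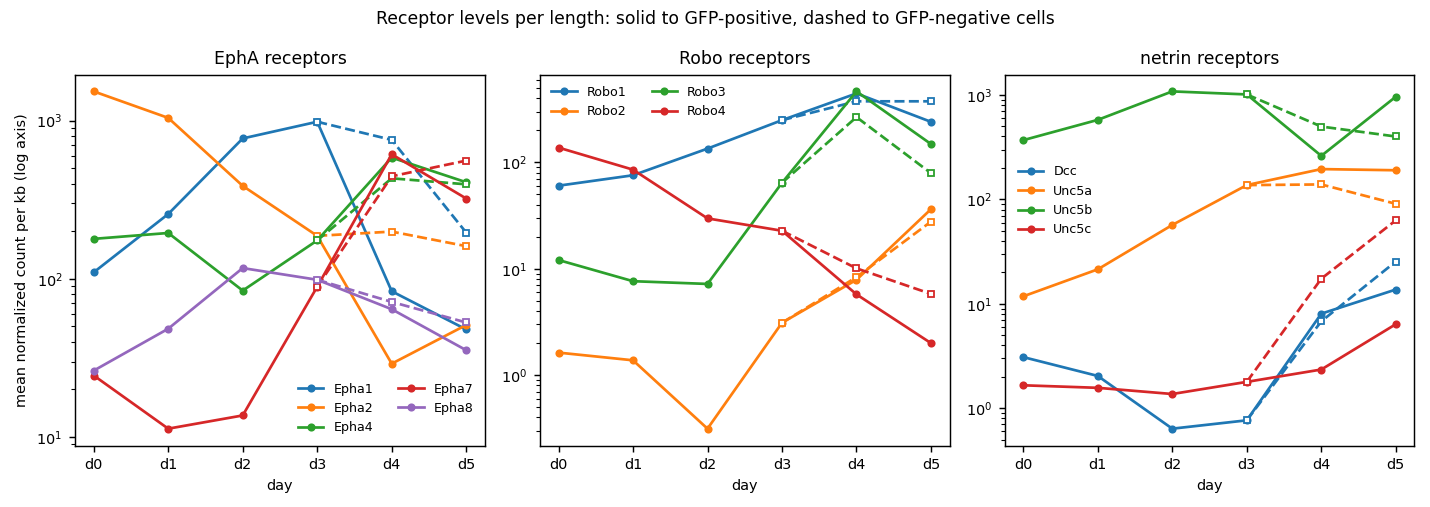
Mean normalized counts per kb of exon (log axis) of EphA, Robo and netrin receptors by day, with solid lines to GFP-positive and dashed lines to GFP-negative cells after day 3. Epha2 starts on top at 1531 per kb and gives way to Epha1 and then to Epha4 and Epha7, and Unc5b stays the highest netrin receptor plotted in every group.

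Of the 5 EphB receptors, whose usual ligands are the ephrin-B proteins, 3 rose between day 0 and day 3. Ephb1 was at 34.4, 31.1 and 36.7 on day 0 and at 1759, 1729 and 1601 on day 3, 49.9 times higher by group means, the largest rise of any member over these days (5.60 ± 0.31, adjusted p = 8.6e-12, limma). Day 1 libraries were at 206, 50.5 and 190 and day 2 libraries at 736, 749 and 760, between those of days 0 and 3. On day 4 Ephb1 was at 2853, 2752 and 3128 in the GFP-negative and 3917, 3595 and 3433 in the GFP-positive gate, and on day 5 at 1786, 1427 and 1468 and at 1347, 1245 and 1225. Every day 5 library lay below every day 4 library, and the difference in the GFP-positive gate was -1.52 ± 0.31 (adjusted p = 0.00191, limma), not called. Ephb6, whose kinase domain is inactive, went from 199, 143 and 126 to 834, 597 and 587 (2.11 ± 0.20, adjusted p = 2.88e-08, limma).

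Ephb2 went from 749, 1035 and 826 to 3001, 2443 and 2200 (1.55 ± 0.14, adjusted p = 8.97e-09, limma), close to the fold threshold. Without day 0 replicate 1 or day 3 replicate 1 the change was 1.45 or 1.43 and no longer counted as a call. From day 3 on, 0 of the 5 EphB genes were called in any comparison. Ephb4 was the highest EphB gene per kb in all 8 groups and differed between gates by 0.03 ± 0.13 on day 4 and 0.07 ± 0.13 on day 5. Before division by length, Ephb2 had the higher mean in day 5 GFP-positive cells, 4709 against 4560 for Ephb4. Ephb3 had a difference of -1.39 ± 0.18 between gates on day 5, with 774, 709 and 750 in GFP-positive and 2231, 1715 and 1929 in GFP-negative cells, under the fold threshold although the groups did not overlap.

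Class 3 semaphorins are secreted and mostly repellent cues. Sema3a, the founding member, was at 28.8, 32.2 and 43.1 on day 0, 139, 170 and 175 on day 3, and 1812, 2040 and 1731 in day 4 GFP-negative and 950, 945 and 1331 in GFP-positive cells. It rose by 2.20 ± 0.29 up to day 3, then by 3.52 ± 0.29 and 2.72 ± 0.29 in the gates (adjusted p = 2.77e-06, 2.24e-08 and 1.54e-07, limma). The gates did not overlap on day 4 but differed by -0.81 ± 0.29, which was not called, and on day 5 they overlapped.

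Sema3e, which signals through Plxnd1 without a neuropilin, was the only class 3 semaphorin called between gates. It was at 359, 487 and 502 on day 3, at 55.4, 48.1 and 48.2 in day 4 GFP-positive and at 232, 222 and 162 in GFP-negative cells. The fall from day 3 was log2 3.11 (SE 0.19, adjusted p = 4.6e-11, limma), and the gates differed by -1.99 ± 0.19 (adjusted p = 1.82e-07, limma). On day 5 GFP-positive libraries were at 35, 43 and 39.1 and GFP-negative libraries at 189, 171 and 238. The difference was -2.31 ± 0.19 (adjusted p = 1.69e-08, limma), and no library of either gate overlapped the other on either day.

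Sema3f, a ligand of Nrp2, rose from 209, 435 and 435 on day 0 to 1497, 1326 and 1525 on day 3 (2.08 ± 0.19, adjusted p = 1.66e-08, limma) and had the highest mean of the class per kb in all 8 groups. On day 0 it led in only 2 of 3 libraries, with 69.3 against 53.5 per kb for Sema3e, so their order there was not separated. Sema3c was at 223, 266 and 197 in day 4 and 750, 870 and 980 in day 5 GFP-negative cells (1.92 ± 0.35, adjusted p = 0.00084, limma). The call was lost without any 1 of these 6 libraries, with differences of 1.82 to 2.04. It was also lost with a replicate block (1.92, adjusted p = 0.00157, limma), with quantile normalization, without the filter and without the trend (adjusted p = 0.00128, 0.0012 and 0.00178, limma). Sema3d was at 3.59, 11.7 and 9.26 on day 3 and 34.6, 46.9 and 66.6 in day 4 GFP-negative cells (2.53 ± 0.45, adjusted p = 0.000361, limma). That call was lost without day 3 replicate 1 or 3 or day 4 GFP-negative replicate 2 or 3, at 2.09 to 2.67.

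Neuropilins bind the class 3 semaphorins and also VEGF. Nrp1 was at 35.3, 46.6 and 37.9 on day 3, at 397, 760 and 994 in day 4 GFP-negative and at 145, 202 and 321 in GFP-positive cells. It rose in both gates, by 4.04 ± 0.28 and 2.38 ± 0.28 (adjusted p = 2.34e-09 and 6.92e-07, limma), and was lower in GFP-positive cells by 1.66 on the log2 scale (-1.66 ± 0.28, adjusted p = 0.000193, limma). The gates did not overlap, but each spread more than 2-fold, and the gate call was lost without day 4 GFP-negative replicate 2 or 3 or GFP-positive replicate 1 or 2, at -1.38 to -1.63, and in a fit of the day 4 groups alone (adjusted p = 0.0276, limma). On day 5 Nrp1 was at 1094, 1342 and 1088 against 512, 554 and 511, with -1.15 ± 0.28, not called.

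Nrp2 had 345, 385 and 351 on day 3 and 2045, 2648 and 3235 in day 4 GFP-negative cells (2.85 ± 0.44, adjusted p = 7.21e-05, limma). GFP-positive cells had 1095, 1347 and 1663, above day 3 but not called. On day 5 all 6 libraries were between 3436 and 3660. Nrp2 was among the members that were low in day 0 replicate 1, with 249 against 1885 and 1572.

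Plexins are the signalling receptors for semaphorins. Plxna4, with Nrp1 a receptor for Sema3a, was at 24.3, 16 and 19.9 on day 3, at 96.6, 153 and 217 in day 4 GFP-negative and at 74.5, 88.4 and 103 in GFP-positive cells. It rose by 2.84 ± 0.46 and 2.10 ± 0.46 (adjusted p = 0.000137 and 0.000966, limma), with the libraries of both gates above day 3. The GFP-positive call was lost without any 1 of its 6 libraries (1.95 to 2.24), without the filter, without the trend and with a pseudocount of 0.5 (adjusted p = 0.00168, 0.00155 and 0.0011, limma), and the GFP-negative call without day 3 replicate 2 or day 4 GFP-negative replicate 2 or 3 (2.56 to 2.81).

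Plxna2 rose in GFP-negative cells, from 266, 239 and 230 to 1088, 1454 and 1329 (2.38 ± 0.17, adjusted p = 3.75e-09, limma), and stood at 502, 561 and 521 in GFP-positive cells. The difference between gates of -1.28 ± 0.17 was under the fold threshold. Plxnc1, the receptor for Sema7a, went from 145, 307 and 245 to 916, 872 and 872 in GFP-negative and 656, 649 and 767 in GFP-positive cells (1.99 ± 0.20 and 1.63 ± 0.20, adjusted p = 3.82e-07 and 1.06e-06, limma). Without day 3 replicate 1 the latter was 1.32, under the fold threshold, and it was also lost in a fit of these groups alone (adjusted p = 0.00159, limma).

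Plxnb3 fell from 18.2, 13.6 and 18.3 on day 3 to 0.992, 1.82 and 3.42 in day 4 GFP-positive cells (-2.59 ± 0.54, adjusted p = 0.000605, limma), a call that rests on few reads per library. The call was lost without any day 3 replicate or day 4 GFP-positive replicate 1 or 2, at -2.31 to -2.72. It was also lost without the filter, in a fit of these groups alone, with a pseudocount of 0.5, with quantile normalization and with a replicate block (-2.17 to -2.83, adjusted p = 0.00151, 0.00175, 0.00166, 0.00178 and 0.00119, limma). The other 5 plexins, Plxna1, Plxna3, Plxnb1, Plxnb2 and Plxnd1, were called in no comparison. Plxnb2 stayed between 4059 and 8965 in all 24 libraries. Plxna1 was between 7123 and 12857 in all but day 0 replicate 1, which had 2630. It shares 10.7% of its exon bases with the antisense gene Gm26811.

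Slits are secreted repellents. Slit3 rose from 103, 315 and 194 on day 0 to 2601, 2455 and 2549 on day 3 (3.77 ± 0.26, adjusted p = 2.79e-10, limma). On day 4 it was at 763, 838 and 851 in GFP-positive cells, whereas GFP-negative cells stayed near day 3 with 2404, 2488 and 2442. The GFP-positive value had fallen from day 3 by 1.63 (standard error 0.26, adjusted p = 3.42e-05, limma) and was below GFP-negative cells by 1.58 on the log2 scale (-1.58 ± 0.26, adjusted p = 0.00014, limma). The gate call was lost without day 4 GFP-negative replicate 2 or GFP-positive replicate 1 (-1.57 and -1.53, adjusted p = 0.00101 and 0.00125, limma), and on day 5 the difference was -0.53 ± 0.26.

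Slit1 was at 134, 59.4 and 61.9 on day 3, at 274, 367 and 366 in day 4 GFP-negative and at 65.1, 97.7 and 92.6 in GFP-positive cells, which overlapped day 3. It rose in GFP-negative cells by 2.06 ± 0.34 (adjusted p = 0.000151, limma), and the gates differed by -1.98 ± 0.34 (adjusted p = 0.0002, limma). On day 5 it was at 381, 432 and 505 against 77.6, 90.3 and 61.8, 5.73 times lower in GFP-positive cells (-2.51 ± 0.34, adjusted p = 1.04e-05, limma). The day 4 gate call was lost without GFP-negative replicate 2 or 3 or GFP-positive replicate 1 (-1.80 to -1.91), with quantile normalization (-1.72, adjusted p = 0.00137, limma) and in a fit of the day 4 groups alone (adjusted p = 0.00119, limma), and the rise without day 3 replicate 2 or 3 or GFP-negative replicate 2 or 3 (1.86 to 1.99).

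Slit2, also a midline repellent, was called in no comparison. It was at 85.8, 182 and 245 on day 0, and at 1573, 2087 and 2377 in day 5 GFP-negative and 1374, 1681 and 1704 in day 5 GFP-positive cells, which overlapped.

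Robo receptors bind the Slits. Robo4, known from endothelium, was at 437, 976 and 789 on day 0 and 166, 106 and 92 on day 3 (-2.56 ± 0.46, adjusted p = 0.000119, limma), and the call was lost without day 0 replicate 2 or day 3 replicate 3 (-2.31 and -2.38). Robo1, a main receptor of axons, went from 559, 1335 and 1102 to 3548, 4393 and 4457 (2.13 ± 0.20, adjusted p = 1.84e-08, limma). Per kb, Robo4 led on day 0 with 138 against 60.5 for Robo1, the 2 were not separated on day 1 (85.6 and 75.8, with Robo4 ahead in 1 of 3 libraries), and Robo1 led on days 2 and 3 with 135 and 250.

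Robo3, a divergent family member, had a short peak on day 4. It was at 48.2, 80 and 121 on day 0, 329, 510 and 485 on day 3, and 3385, 3084 and 3109 in day 4 GFP-positive and 2306, 2083 and 1093 in GFP-negative cells. It rose by 2.47 ± 0.30 up to day 3, and by 2.88 ± 0.30 and 2.00 ± 0.30 in the gates (adjusted p = 1.19e-06, 1.42e-07 and 6.69e-05, limma). On day 5 it was down at 1298, 1060 and 696 in GFP-positive and 480, 621 and 529 in GFP-negative cells.

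The falls of Robo3 from day 4 to day 5 were 1.69 and 1.68 (standard error 0.30 each, adjusted p = 0.000678 and 0.000798, limma). They were lost without each of 5 of the 6 libraries, all but day 5 GFP-positive replicate 1 and day 4 GFP-negative replicate 3, at -1.44 to -1.75 and -1.48 to -1.78, and both without the trend (adjusted p = 0.00158 and 0.00183, limma). Quantile normalization lost the fall in GFP-positive cells and the lack of a filter that in GFP-negative cells (adjusted p = 0.00103 and 0.00115, limma). Robo2 rose from 85.1, 144 and 171 to 532, 616 and 709 in GFP-positive cells (2.25 ± 0.42, adjusted p = 0.000852, limma), which was lost without any 1 of the 6 libraries (1.96 to 2.46) and under 5 other settings (2.03 to 2.26, adjusted p = 0.00106 to 0.00661, limma). Day 5 GFP-negative libraries were nearly as high, at 428, 498 and 490. Per kb, Robo3 and Robo1 were at 466 and 446 in day 4 GFP-positive cells, with Robo3 ahead in 2 of 3 libraries, and Robo1 led in both day 5 gates. Before division by length, the day 4 GFP-positive means of Robo3 and Robo1 were 3193 and 7367.

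Netrins are diffusible cues read by Dcc and the Unc5 receptors. Ntn1 was at 1132, 913 and 754 on day 3 and at 4581, 4491 and 4772 in day 4 GFP-positive and 4815, 4686 and 6030 in GFP-negative cells, with rises of 2.32 ± 0.33 and 2.48 ± 0.33 (adjusted p = 7.39e-06 and 1.29e-05, limma). The gates overlapped on day 4, and on day 5 both were below their day 4 values, at 1921, 1456 and 1713 and at 3673, 2475 and 2628. Ntn4 stayed at or below 152 in every library.

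Dcc, the attractive netrin receptor, dipped and came back. It was at 49.8, 35.1 and 37.1 on day 0, 12.1, 12.5 and 5.66 on day 3, and 80.5, 130 and 108 in day 4 GFP-positive and 79.7, 94.6 and 94.5 in GFP-negative cells. The fall was 1.96 (standard error 0.41, adjusted p = 0.000469, limma), and the rises were 3.32 ± 0.41 and 3.10 ± 0.41 (adjusted p = 1.07e-06 and 1.13e-05, limma). The fall was lost without any day 0 replicate or day 3 replicate 3 (-1.63 to -2.06), with quantile normalization (-1.81, adjusted p = 0.00166, limma) and in a fit of these groups alone (adjusted p = 0.0136, limma). On day 5 Dcc was at 277, 353 and 375 in GFP-negative and 176, 165 and 200 in GFP-positive cells, a difference of -0.88 ± 0.41, not called.

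Unc5c, a repulsive netrin receptor, had the largest gate difference of the members on day 5. It was at 39.5, 36.2 and 27.2 on day 3, at 136, 289 and 576 in day 4 GFP-negative and at 21.7, 38.1 and 75.2 in GFP-positive cells, so that the latter overlapped day 3. GFP-negative cells rose by 3.02 ± 0.40 (adjusted p = 1.36e-05, limma), and the gates differed by -2.80 ± 0.40 (adjusted p = 2.73e-05, limma). On day 5 GFP-negative libraries were at 1066, 1460 and 1094 and GFP-positive libraries at 122, 136 and 109, a 9.92-fold ratio (log2 -3.28 ± 0.40, adjusted p = 3.18e-06, limma). The libraries of each gate spread more than 3-fold on day 4, yet no GFP-positive library reached the lowest GFP-negative one. In a fit of the day 4 groups alone the gate call was lost (adjusted p = 0.0191, limma).

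Unc5b had its lower values in GFP-positive cells on day 4 and in GFP-negative cells on day 5, with neither gate difference called. It was at 979, 3410 and 2535 on day 0, 7129, 6046 and 5802 on day 3, 3042, 2825 and 3475 in day 4 GFP-negative and 1420, 1739 and 1740 in day 4 GFP-positive cells. On day 5 the GFP-positive libraries were back at 5949, 5229 and 6874, above 2953, 2599 and 1960 in GFP-negative cells. It rose by 1.63 ± 0.28 up to day 3, fell by 1.95 (standard error 0.28) to day 4 GFP-positive cells and rose by 1.88 ± 0.28 to day 5 (adjusted p = 8.01e-05, 9.99e-06 and 0.000112, limma).

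Without day 0 replicate 1 the early change of Unc5b was 1.10 and not called, and its rise to day 5 was lost without day 4 GFP-positive replicate 1 or day 5 GFP-positive replicate 3 (1.78 each, adjusted p = 0.00124 and 0.00118, limma). Unc5a went from 58.3, 60.3 and 29.1 on day 0 to 677, 568 and 472 on day 3 (3.57 ± 0.22, adjusted p = 4.39e-11, limma). On day 5 it was at 753, 759 and 863 in GFP-positive and 383, 423 and 329 in GFP-negative cells, with 1.07 ± 0.22, under the fold threshold. Per kb, Unc5b was the highest of the netrin receptors in all 8 groups, from 261 in day 4 GFP-positive cells to 1081 on day 2.

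The difference between gates was itself compared between days, and 0 members were called for the change (0.109% of all genes were), while 13 had an unadjusted p under 0.05 (of 53, beside 9.40% of all genes). At an adjusted p under 0.05 there were 4 (beside 1.10% of all genes, or 0.905% with a log2 change above 1, which the 4 members also had). Unc5b changed by 2.21 ± 0.40 (adjusted p = 0.00534, limma) from -0.93 ± 0.28 on day 4 to 1.28 ± 0.28 on day 5, and no gates overlapped on either day. Epha7 changed by -1.27 ± 0.25 and Epha1 by 1.14 ± 0.23 (adjusted p = 0.0112 each, limma), and Epha3 by -3.05 ± 0.68 (adjusted p = 0.0272, limma).

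**Figure D5:**
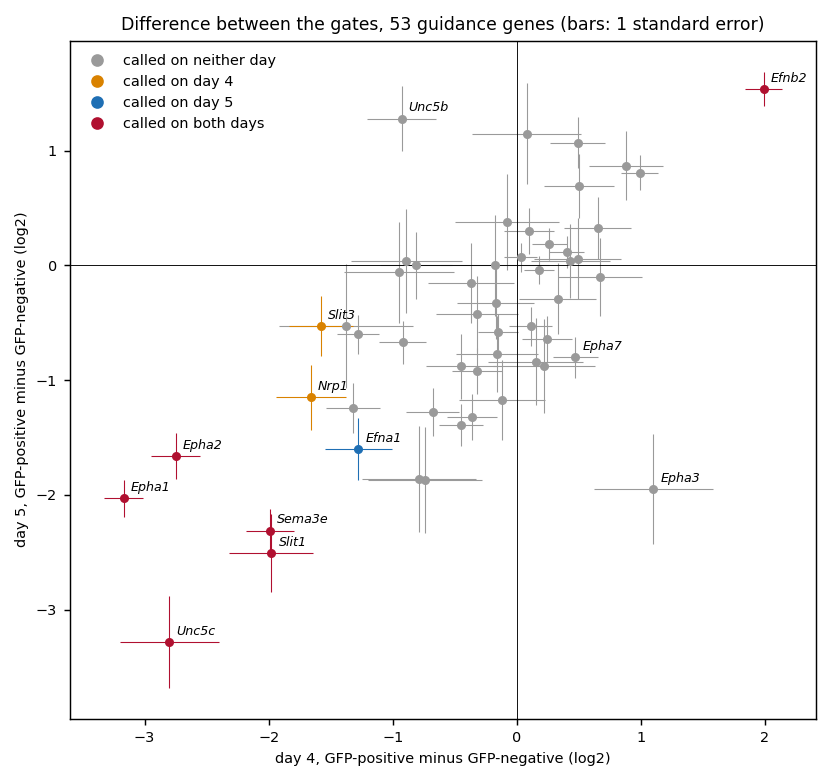
Log2 difference of GFP-positive minus GFP-negative cells on day 4 (horizontal) and day 5 (vertical) for the 53 tested members, with bars of 1 standard error and colours for the days on which a difference was called. Efnb2, the member called higher on both days, lies farthest to the upper right, with 1.99 and 1.54, Epha1, Epha2, Sema3e, Slit1 and Unc5c lie at the lower left, and Unc5b lies at the upper left.

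Markers of other cell types moved with the gate as well. The 6 pluripotency markers summed to 13702 to 16412 in day 4 GFP-negative and 1205 to 2510 in GFP-positive libraries, and to 6037 to 7296 and 409 to 540 on day 5, with 6 of 6 lower on both days. The 6 mesendoderm markers summed to 6277 to 9097 and 315 to 656 on day 4 and to 3203 to 4194 and 203 to 285 on day 5, again with 6 of 6 lower. Of 8 endothelial markers 7 entered the test, and 3 were lower on day 4 and 4 on day 5 (sums over all 8 of 1340 to 2413 against 161 to 301, and 2439 to 2989 against 768 to 947). Sox17, called on both days, is also in the mesendoderm list. The endothelial list summed to 2772 to 5133 on day 0, so its sum is not a measure of endothelial cells alone. Kdr, at 638 to 772, made up most of the day 5 GFP-positive sums, where Cdh5, Tie1, Erg and Emcn had means of 6.81, 4.75, 2.02 and 0.683. Of 5 neural crest markers 3 were lower on each day (1712 to 2204 against 333 to 426, and 1639 to 2302 against 272 to 408). Foxd3 was among the 3 on both days. This list had its highest sums on day 2, at 4150 to 4828, where Foxd3 alone had a mean of 4061. Its sum is therefore not a measure of neural crest cells alone.

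The 5 eye-field markers were all higher in GFP-positive cells on both days, with sums of 45893 to 47745 against 8869 to 10833 on day 4 and 54804 to 57307 against 8351 to 9094 on day 5. Of 5 surface ectoderm markers tested, 2 were lower on each day, and of 6 neuronal markers 0 were called. No marker was at 0 in all 3 libraries of a gate, but Emcn, Erg and the surface ectoderm marker Trp63 had means of 1.98, 1.29 and 1.72 in GFP-positive cells on day 4, the level of a few reads. The part of these cell types in the gate differences of Epha1, Epha2, Sema3e, Nrp1, Slit1, Slit3, Unc5c, Efna1 and Efnb2 was not tested.

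Among 35 other guidance genes, which comprise class 4 to 7 semaphorins, further netrins, Neo1, Dscam, Draxin, the repulsive guidance molecules Rgma and Rgmb, Flrt proteins and cytosolic mediators, 11 rose and 0 fell from day 0 to day 3, beside 5.91% and 6.12% of all genes. From day 3, 8 rose and 2 fell into day 4 GFP-positive cells (3.33% and 7.36% of all genes), and 7 rose and 0 fell into GFP-negative cells (2.00% and 0.871% of all genes). Between gates only Sema7a was called on day 4, as lower in GFP-positive cells, beside 0.328% of all genes higher and 3.63% lower. It had 34.2 ± 5.33 in GFP-positive against 206 ± 89.9 in GFP-negative libraries (SD, n = 3). On day 5, 0 were called (beside 0.400% and 4.61%), and 16 had an unadjusted p under 0.05 (beside 26.3% of all genes). From day 4 to day 5 Flrt2, which holds neighbouring cells by adhesion or repels Unc5-bearing axons, rose in both gates, reaching 933 ± 44.0 (GFP-positive) and 424 ± 42.6 (GFP-negative; SD, n = 3).

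The 17 tested members called in no comparison were Efna2, Efna3, Efna4, Epha5, Epha10, Ephb3, Ephb4, Sema3b, Sema3g, Plxna1, Plxna3, Plxnb1, Plxnb2, Plxnd1, Slit2, Ntn4 and Unc5d. They ranged from low genes such as Sema3g, with 4.52 to 25.7 normalized counts, to Plxna1, with up to 12857.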

How the data were processed

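Reads were pseudo-aligned by the authors with kallisto (0.43.1 in the submitters' processing notes) to an mm10 index of Ensembl cDNA plus ncRNA, and the deposited signal is an estimated count per gene divided by DESeq2 size factors. Strandedness is not given in the sources used here. Columns with the authors' own calls of eye-field genes were not used. Only 44.8% to 76.5% of low values lay within 0.1 of a whole number of reads, so no count model was fitted. The table holds 49705 entries in 24 libraries. Log2(value + 1) was taken for the 21005 genes reaching 10 in 3 or more libraries, and group means were fitted by limma 3.58.1 under R 4.3.3 (eBayes with trend, no block), and the shrinkage of fold changes used in the study was not applied. The thresholds are those of the study. In simulated day 4 gates, 170 of 200 planted log2 changes of 2 and 195 of 200 of 3 were recovered, with 0 false calls. The simulation drew independent normal errors and planted changes only in genes above a minimum mean level. It covers neither low members nor the other comparisons. Levels per kb are values divided by merged exon length in GENCODE M21, where 54 of 54 members have the same start and end. This length takes in the exons of all annotated transcripts of a gene. The order between genes per kb therefore depends on the annotation, and other lengths were not tested. Sequences are from RefSeq, and figures were drawn with matplotlib 3.10.9 in Python 3.11.15.

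The members, gene lists, motifs and tests were chosen with earlier results of these data known. For members called in at least 1 comparison, values are given in every library of the groups called, with further groups for some, and other members by range or single values. Among other guidance genes, those called between gates were to be named; Flrt2 was named after its values were seen. Alternatives were pseudocounts, filters, quantile normalization, a replicate block, no trend, fewer groups, wider thresholds and leaving out each library; a block for gates of the same day and number was added after seeing the data.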

Additional observations from a re-analysis of the deposited data

Results flagged for a closer look

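For 4 members the difference between GFP-positive and GFP-negative cells was not the same on day 5 as on day 4, by a test of the change itself in limma. Unc5b, a netrin receptor, had a change of log2 2.21 (SE 0.40, adjusted p = 0.00534, limma), from a gate difference of -0.93 on day 4 to one of 1.28 on day 5, neither of which was called. Epha1 had a change of 1.14 (SE 0.23, adjusted p = 0.0112, limma), because its gate difference was -3.17 on day 4 and -2.03 on day 5. Epha7 had a change of -1.27 (SE 0.25, adjusted p = 0.0112, limma), with GFP-positive cells above GFP-negative cells on day 4 and below them on day 5. Epha3 had a change of -3.05 (SE 0.68, adjusted p = 0.0272, limma), at values of 7.33 to 93.2 normalized counts in these 12 libraries. None of the 4 passed the threshold of 0.001 used for calls.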

How the results depend on the processing

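The members were called 73 times. Under the other settings 546 of 598 such results kept direction and threshold, 52 kept only the direction and 0 reversed, and with libraries left out the numbers were 420, 74 and 0 of 494. The number of members called moved by more than 1.5 times under some settings, and the cause was not tested unless named. A fit of only the groups compared, with fewer samples, gave 6 from day 0 to day 3, 8 from day 3 to day 4 GFP-negative cells, 5 between day 4 gates, 1 and 2 from day 4 to day 5 in GFP-positive and GFP-negative cells, and 1 for the change of the gate difference. Wider thresholds (adjusted p under 0.05, absolute log2 difference above 1; beside 24.9%, 22.0%, 10.6%, 5.47%, 4.96% and 0.905% of all genes) gave 27 from day 0 to day 3, 31 from day 3 to day 4 GFP-positive cells, 18 between day 5 gates, 13 and 10 from day 4 to day 5, and 4 for the change. In GFP-positive cells from day 4 to day 5, quantile normalization and no trend gave 1 each. In GFP-negative cells, no filter and no trend gave 2 each. For the change of the gate difference, a pseudocount of 5 gave 1. Leaving out single libraries moved the count by more than 1.5 times between day 4 gates (5 to 10), from day 4 to day 5 (0 to 3 and 1 to 5) and for the change (0 to 1). It moved it by less from day 0 to day 3 (15 to 18), from day 3 to the GFP-positive and the GFP-negative gate (17 to 20 and 12 to 15) and between day 5 gates (5 to 8). These are totals of both directions. The falls from day 0 to day 3 alone, 3 with all libraries, went to between 1 and 4.

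The labels repeat replicate numbers across groups, and the study sorted day 4 and 5 samples into both gates, but no source used here ties a number to a shared sort. Deviations of same-numbered libraries had a correlation over 0.1 in 10 of 84 pairs (mean -0.001), and between gates of -0.108 to 0.023 on day 4 and -0.075 to 0.147 on day 5. The order of numbers was the same in both gates for 17 of 54 members on day 4 and 9 of 54 on day 5. Its share over all genes was not computed. The 17 include Nrp1, Slit1 and Unc5c, the gate calls lost in a fit of the day 4 groups alone. A replicate block gave 17, 19, 15, 8, 7, 3, 4 and 0 members in the 8 comparisons in the order above, losing Plxnb3 (18 of 19 shared) and Sema3c (3 of 4 shared). A block for gates of the same day and number, chosen after seeing the data, gave 8, 7 and 0 for the gates and their change, all shared with the fit without it. Quantile normalization moved the calls over all genes between day 5 gates from 84 higher and 968 lower to 106 and 569. Depth limits Epha3, Epha6, Plxnb3, Sema3d and Sema3g most.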
